A study of Mus musculus with 40 samples.

Results

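The transcripts of 6 genes were followed through the first cell cycles of cloned mouse embryos: Scube2, Col27a1, Lgals3, Anxa2, S100a6 and Vim. They encode secreted, matrix, membrane-binding and cytoskeletal proteins of somatic cells, and they were chosen by their measured intensities, as matrix genes that stood higher in clones. For each gene the probe set annotated to that gene alone with the highest mean over all arrays was used, out of 11 probe sets for the 6 genes. All 6 passed the filter on dim probe sets and belong to the 14916 genes tested, Scube2 through the 4 untreated 2-cell SCNT arrays alone. S100a6 had just the 4 bright arrays required: 2 untreated 2-cell SCNT, 1 amanitin-treated 1-cell SCNT and 1 untreated 1-cell fertilized array. Its entry thus rested on an array of a group tested below. The 6 bright arrays of Vim were 1-cell arrays, 2 each of amanitin-treated SCNT, untreated SCNT and untreated fertilized embryos. Which comparison chose the genes is not stated. Values of the 6 genes in untreated embryos were taken as used by the choice and are given as a description without a test. Tests of the 6 genes are given for comparisons among embryos kept in amanitin, and if those arrays also entered the choice, their p-values are not independent of it.

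The embryos were of the B6D2 mouse background, and poly(A) RNA of each sample was hybridised to 1 Affymetrix mouse array. The 10 groups were, at the 2-cell and at the 1-cell stage, cloned embryos (SCNT, for somatic cell nuclear transfer, with a cumulus cell as donor) cultured with α-amanitin, SCNT embryos without it, parthenogenetic embryos, fertilized embryos with amanitin and fertilized embryos without it. Each group had 4 arrays, except the untreated 1-cell SCNT group, in which the values of 1 array were empty and 3 were used, so that 39 arrays were analysed. The labels name MEMα as the culture medium of SCNT embryos and KSOM for 1 fertilized sample, so medium and origin cannot be told apart. For fertilized embryos the reading of amanitin treatment rests on the letter A in the sample titles and on the stated design. The labels do not say how many embryos were pooled or whether replicates came from separate collections, so the p-values measure the spread between these samples, which may be technical.

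In a cloned embryo the nucleus of a differentiated cell is placed in an enucleated oocyte, whose stored maternal RNA supports it until the embryo begins its own transcription. In the mouse a minor wave of transcription starts in the 1-cell embryo and the major wave comes at the 2-cell stage. α-Amanitin blocks RNA polymerase II and is used to tell newly made transcripts from stored ones. Collagens, galectins and the binding partners of the cell cortex are typical products of mesenchymal and other somatic cells.

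Values are probe set intensities, a relative brightness that cannot be compared between probe sets as transcript number. The median of all values corresponded to an intensity of 33.6. Differences are on the scale of log2(intensity + 6.9) after quantile normalization, which understates changes of dim genes. Folds are ratios of intensity + 6.9, and SE is the standard error from limma. Overlap between groups was judged on these normalized values, which can order single arrays otherwise than the deposited intensity. Oocyte and early embryo markers were bright in every group, with at least 13 of 14 above the overall median on all arrays of a group. Markers of spermatids and blood were dim, with at most 2 of 7 and 0 of 4 genes above it. The mean log2 intensity of the added poly(A) control transcripts differed between groups. It was 9.32 to 9.82 in amanitin-treated and 7.56 to 8.47 in untreated 2-cell SCNT embryos, against 6.83 to 7.20 in amanitin-treated and 6.55 to 7.84 in untreated 2-cell fertilized embryos. At the 1-cell stage it was 3.51 to 3.83 in amanitin-treated and 3.52 to 3.67 in untreated SCNT embryos, against 6.77 to 6.96 in amanitin-treated and 5.64 to 6.45 in untreated fertilized embryos. Its part in the results below was not tested.

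Across the groups the 6 genes did not share 1 pattern. In untreated 2-cell embryos, 5 of the 6 (all but Vim) were higher on every SCNT array than on every fertilized array, where 15.0% of all genes were. Scube2, Col27a1 and Lgals3 were brighter on the 4 untreated 2-cell SCNT arrays than on any of the other 35 arrays, as 6.13% of all genes were. Anxa2 and S100a6 were also present in 1-cell embryos, and their normalized 2-cell SCNT values overlapped those of 1-cell SCNT embryos, although the intensities of S100a6, 30.7 to 71.6 at the 2-cell and 22.4 to 26.0 at the 1-cell stage, did not. At the 2-cell stage Vim went against the description as higher in clones, since it was dim in all 2-cell groups and its SCNT and fertilized arrays overlapped, while its highest means were those of the 1-cell SCNT groups.

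**Figure D1:**
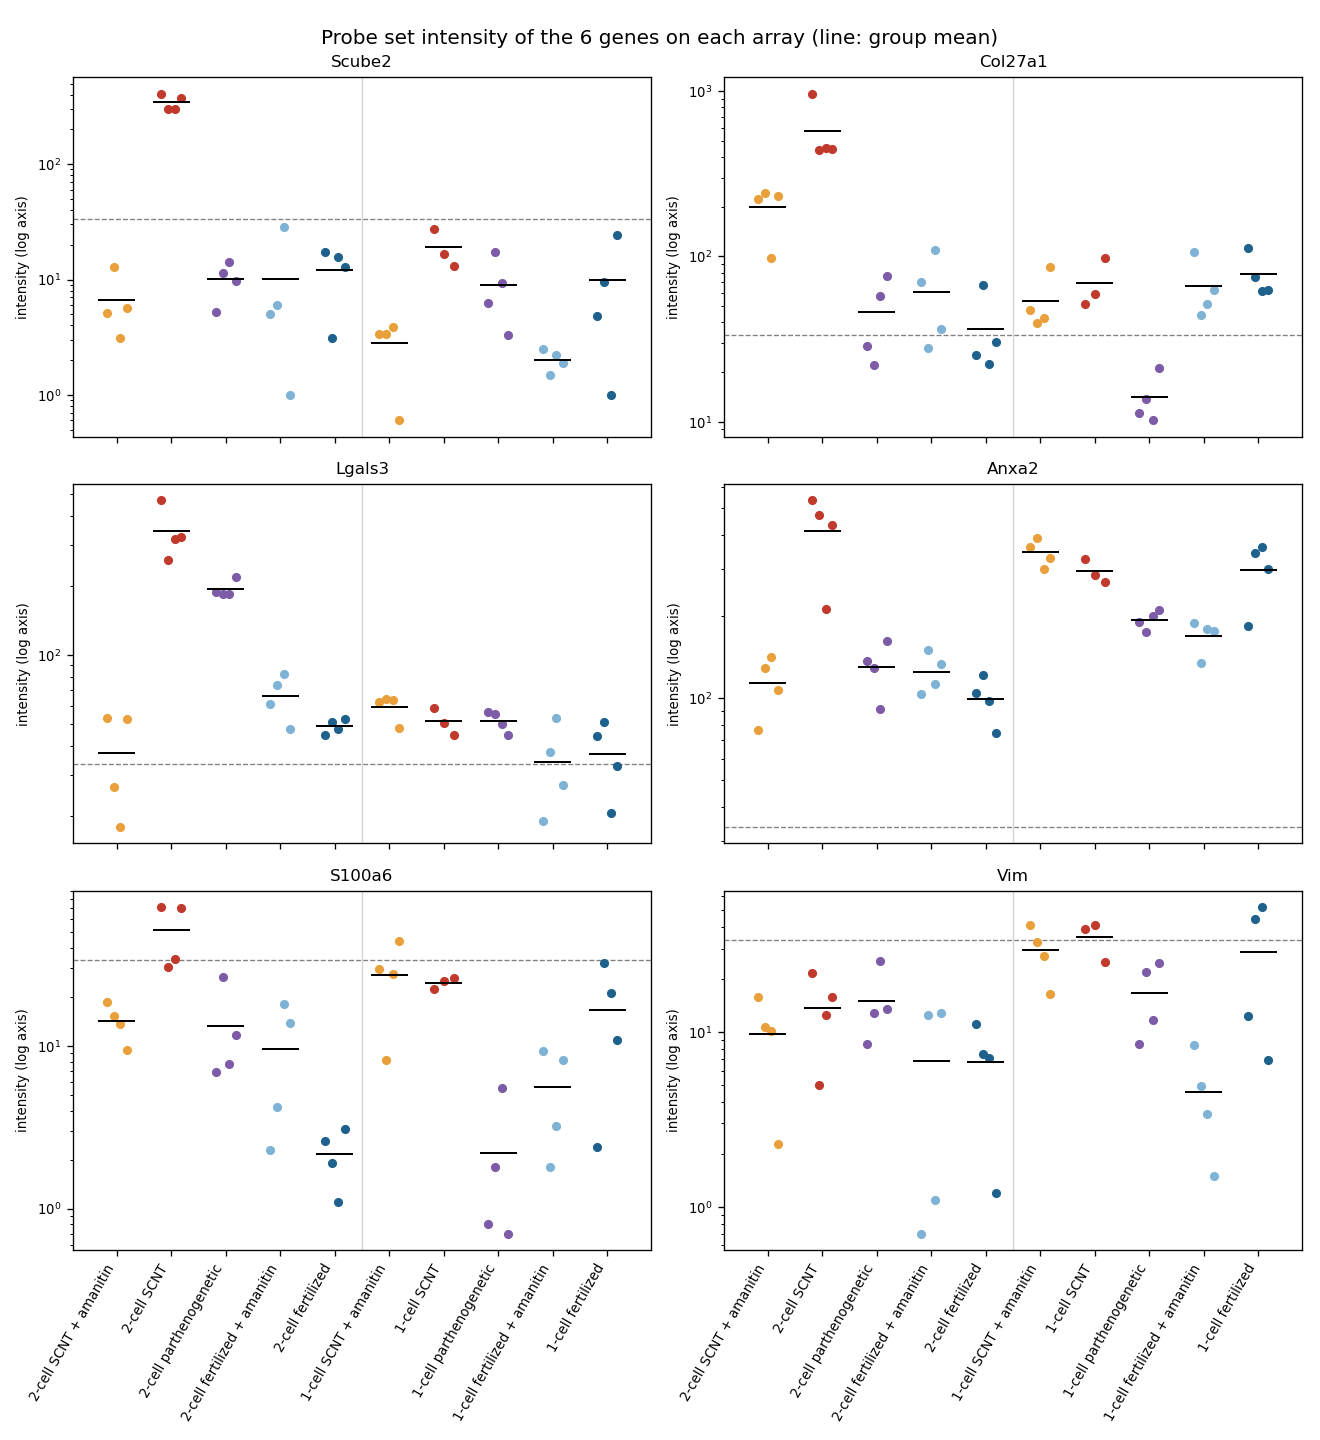
Intensity (log axis) of the 6 genes on every array, with the 2-cell groups left of the grey line and the 1-cell groups right of it; points are arrays, short black lines group means, and the dashed line is the median of all values, 33.6. Scube2, Col27a1 and Lgals3 are brightest on the 4 untreated 2-cell SCNT arrays, Anxa2 is bright in all 1-cell groups, and Vim stays at or below 25.4 in the 2-cell groups.

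The sequence before the start of transcription is shown for Scube2, Col27a1 and Lgals3, for which no other array was as bright as the untreated 2-cell SCNT arrays, and for Vim, which was dim on those arrays. Each line gives the 250 bases upstream of the RefSeq start on the gene's strand (build GRCm38.p6). Capitals mark matches, on either strand, to the motifs named after the sequences, and the matches in Scube2 overlap one another in places.
Scube2, chr7:109865680-109865929, minus strand: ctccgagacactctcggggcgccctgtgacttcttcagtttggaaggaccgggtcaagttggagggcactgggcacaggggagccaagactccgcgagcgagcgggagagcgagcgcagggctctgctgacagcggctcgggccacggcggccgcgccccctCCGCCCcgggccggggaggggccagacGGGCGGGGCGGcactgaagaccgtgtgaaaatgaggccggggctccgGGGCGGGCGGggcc
Col27a1, chr4:63215162-63215411, plus strand: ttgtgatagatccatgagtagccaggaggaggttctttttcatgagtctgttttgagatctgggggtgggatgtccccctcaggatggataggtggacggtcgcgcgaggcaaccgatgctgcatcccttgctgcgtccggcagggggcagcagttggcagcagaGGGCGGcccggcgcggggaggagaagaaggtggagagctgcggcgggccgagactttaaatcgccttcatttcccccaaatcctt
Lgals3, chr14:47373610-47373859, plus strand: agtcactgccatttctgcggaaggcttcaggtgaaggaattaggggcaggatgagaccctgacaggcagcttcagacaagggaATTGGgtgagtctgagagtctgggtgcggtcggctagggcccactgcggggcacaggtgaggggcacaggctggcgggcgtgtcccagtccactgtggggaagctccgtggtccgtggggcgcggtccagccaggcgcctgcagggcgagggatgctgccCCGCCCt
Vim, chr2:13574061-13574310, plus strand: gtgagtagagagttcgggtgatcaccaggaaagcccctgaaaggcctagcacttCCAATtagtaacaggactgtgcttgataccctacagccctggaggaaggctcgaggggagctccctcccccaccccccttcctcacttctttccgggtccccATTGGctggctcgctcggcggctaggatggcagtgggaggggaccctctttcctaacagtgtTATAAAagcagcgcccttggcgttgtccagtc

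No motif was common to all 6 genes. The GC box, spelled GGGCGG, was found upstream of 4 of 6 genes (Scube2, Col27a1, Lgals3 and Anxa2), and of 32.7% of all 32851 promoters. Matches to the sequence CCAAT lay upstream of Lgals3, S100a6 and Vim, 3 of 6 genes, against 33.8% of all promoters. The TATA box, spelled TATAAA, was found upstream of Anxa2 and Vim, 2 of 6, against 12.4%. The AP-1 motif, spelled TGANTCA, was found upstream of Anxa2, 1 of 6, against 6.7%. The E box, spelled CACGTG, was found upstream of 0 of 6, against 6.0%. The Scube2 window was rich in G and C, at 73.6% of its bases, compared with a median of 52.4% over all promoters. The Col27a1 window lies inside the annotated gene, which RefSeq places at chr4:63214009-63334991, so it belongs to an inner start site. These matches describe the letters in these windows and say nothing of binding.

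Scube2 encodes a secreted and membrane-tethered glycoprotein with EGF repeats that helps to release lipid-modified hedgehog ligands from the cells that make them. The gene lies at chr7:109798690-109865679. Its intensity was 5.1, 12.8, 3.1 and 5.7 in amanitin-treated 2-cell SCNT embryos and 409.2, 302.1, 301.4 and 377.8 in untreated ones. It was 5.2 to 14.1 in 2-cell parthenogenetic embryos, 1.0 to 28.8 in amanitin-treated 2-cell fertilized embryos and 3.1 to 17.2 in untreated ones. All 4 untreated 2-cell SCNT arrays were bright, and the other 35 arrays were below the overall median. The difference of SCNT minus fertilized embryos was 4.27 log2 (SE 0.39) at the 2-cell stage, a size that depends on the added constant because the fertilized arrays were dim, and 0.80 (SE 0.42) with overlapping arrays at the 1-cell stage. Amanitin minus none in 2-cell SCNT embryos was -4.80 log2 (SE 0.39), which likewise depends on the constant, with mean intensities of 6.7 ± 4.2 in amanitin-treated and 347.6 ± 54.5 in untreated embryos (SD, n = 4 each). In 1-cell embryos Scube2 was 3.4, 3.4, 3.9 and 0.6 in amanitin-treated SCNT embryos and 27.6, 16.7 and 13.2 in untreated ones. The 2 sets of arrays did not overlap there, and the log2 difference was -1.42 (SE 0.42), though all 7 values were below the overall median. Non-overlap in the lower direction in that comparison was seen for 4.83% of all genes.

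Col27a1 encodes the α1 chain of type XXVII collagen, a fibrillar collagen of developing cartilage. Its intensity was 223.5, 240.3, 98.0 and 230.5 in amanitin-treated 2-cell SCNT embryos, and 965.9, 438.3, 454.0 and 445.1 in untreated ones. In the other 2-cell groups it was 22.2 to 75.7 in parthenogenetic, 28.0 to 110.0 in amanitin-treated fertilized and 22.5 to 67.4 in untreated fertilized embryos. Untreated 2-cell SCNT embryos were thus highest, amanitin-treated ones came next, and their lowest array lay within the range of amanitin-treated fertilized embryos. SCNT minus fertilized was 3.85 log2 (SE 0.38, 14.5-fold) at the 2-cell stage and -0.17 (SE 0.41) with overlapping arrays at the 1-cell stage. Amanitin minus none in 2-cell SCNT embryos was -1.47 log2 (SE 0.38). At the 1-cell stage the gene was 51.9 to 97.5 in untreated SCNT, 10.2 to 21.3 in parthenogenetic and 62.2 to 111.9 in untreated fertilized embryos, and the parthenogenetic arrays lay below the arrays of both other groups. SCNT arrays stood above parthenogenetic arrays in this way for 16.9% of all genes, and parthenogenetic below fertilized arrays for 12.2%.

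A dimmer probe set of Col27a1, listed with the same sequence record, gave another picture of the amanitin groups. It read 51.9 to 91.2 in amanitin-treated and 172.5 to 234.7 in untreated 2-cell SCNT embryos, against 9.5 to 111.5 in amanitin-treated and 38.0 to 53.9 in untreated fertilized embryos. SCNT minus fertilized was then 1.96 log2 (SE 0.46) in untreated 2-cell embryos, in the direction of the brighter probe set. Under amanitin it was 0.06 (SE 0.46, adjusted p = 0.933 by limma over all kept probe sets), so the excess that the brighter probe set kept under amanitin was seen with that probe set alone. In 1-cell embryos the dimmer one read 6.9 to 49.5 in parthenogenetic and 30.0 to 109.9 in untreated fertilized embryos, which overlapped. Untreated 1-cell SCNT embryos, at 62.8 to 81.9, lay above the parthenogenetic ones with both probe sets.

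**Figure D2:**
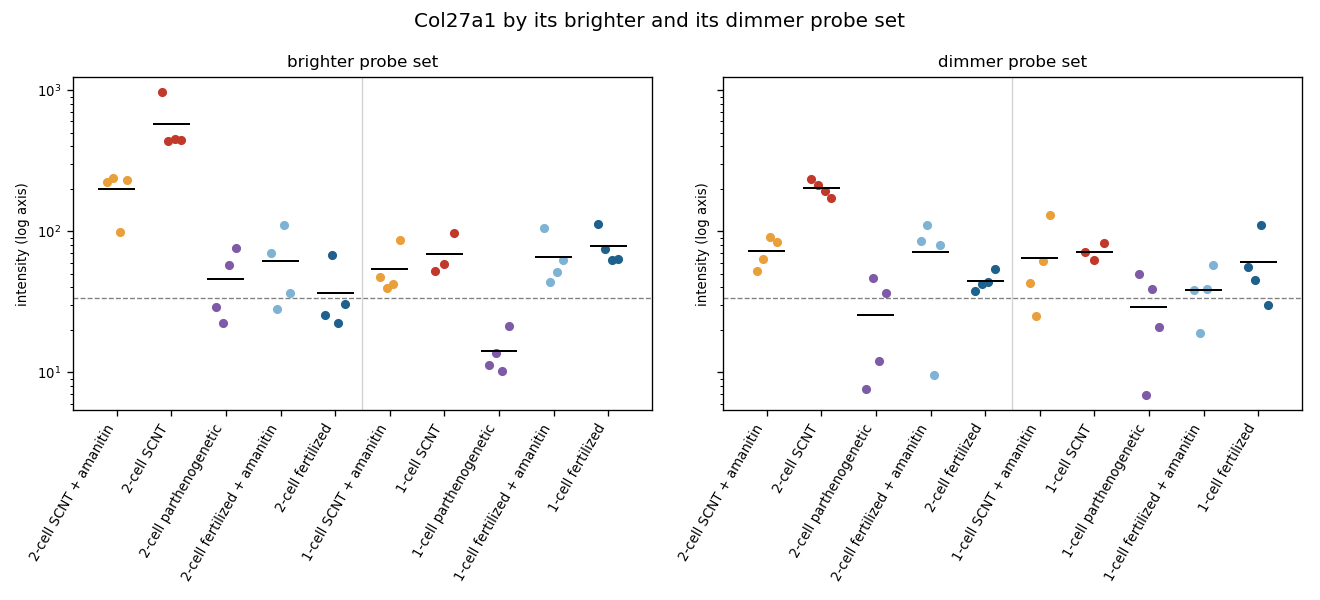
Intensity (log axis) of the brighter and the dimmer probe set of Col27a1 by group; points are arrays, short lines group means, and the dashed line is the median of all values, 33.6. Both are highest in untreated 2-cell SCNT embryos, and amanitin-treated 2-cell SCNT embryos read 98.0 to 240.3 with the brighter and 51.9 to 91.2 with the dimmer probe set.

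Lgals3 encodes galectin-3, a β-galactoside-binding lectin found inside cells, at the cell surface and in the matrix. The gene lies at chr14:47373860-47386167. Its intensity was 53.2, 26.6, 17.8 and 52.6 in amanitin-treated 2-cell SCNT embryos, 470.7, 259.7, 320.3 and 326.8 in untreated ones and 186.9, 184.8, 184.5 and 218.2 in 2-cell parthenogenetic embryos. It was 61.3, 74.1, 82.5 and 47.6 in amanitin-treated 2-cell fertilized embryos and 44.7, 50.9, 47.6 and 52.4 in untreated ones. Both kinds of embryo made without sperm were above the fertilized embryos, SCNT embryos by 2.60 log2 (SE 0.26, 6.08-fold) and parthenogenetic embryos by 1.88 (SE 0.26, 3.68-fold). SCNT minus parthenogenetic was 0.72 (SE 0.26), and the arrays of these groups did not overlap. Among all genes, 22.9% were higher in SCNT than in parthenogenetic and 24.4% higher in parthenogenetic than in fertilized 2-cell embryos without overlap. Amanitin minus none in 2-cell SCNT embryos was -3.21 log2 (SE 0.26). At the 1-cell stage the lowest array of any group read 18.9 and the highest 64.1, and untreated SCNT and fertilized arrays overlapped.

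Anxa2 encodes annexin A2, which binds membranes and F-actin in the presence of calcium and pairs with S100a10 at the cell cortex. The gene lies at chr9:69453683-69491792. Its intensity in 2-cell embryos was 76.5, 129.7, 142.4 and 107.6 in amanitin-treated SCNT, 535.3, 471.4, 213.1 and 434.7 in untreated SCNT and 91.7 to 163.0 in parthenogenetic embryos. It was 103.7 to 150.5 in amanitin-treated and 74.5 to 121.8 in untreated 2-cell fertilized embryos. The untreated SCNT arrays did not overlap those of any other 2-cell group. Of all genes, 15.0% were higher without overlap in them than in untreated fertilized and 22.9% than in parthenogenetic 2-cell embryos. In amanitin-treated 2-cell SCNT embryos 26.6% were lower without overlap than in untreated ones. The share above all these groups at once was not counted. In 1-cell embryos it was 299.9 to 388.3 in amanitin-treated SCNT, 268.9 to 325.8 in untreated SCNT, 175.5 to 210.6 in parthenogenetic, 134.7 to 189.5 in amanitin-treated fertilized and 184.6 to 359.6 in untreated fertilized embryos. SCNT minus fertilized was 1.93 log2 (SE 0.23, 3.81-fold) at the 2-cell stage and 0.01 (SE 0.24) at the 1-cell stage. The 2-cell minus 1-cell difference was 0.42 (SE 0.24) with overlapping arrays in untreated SCNT embryos. It was -0.73 (SE 0.23) in parthenogenetic and -1.50 (SE 0.23) in untreated fertilized embryos, and the arrays of the stages did not overlap in either. Lower arrays without overlap were seen for 27.1% and 31.0% of all genes in these 2 comparisons. Amanitin minus none in 2-cell SCNT embryos was -1.79 log2 (SE 0.23).

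S100a6 encodes calcyclin, a small calcium-binding S100 protein that binds annexins. The gene lies at chr3:90612894-90614414. It was dim, with 4 of 39 arrays above the overall median. It read 18.6, 15.3, 13.7 and 9.4 in amanitin-treated 2-cell SCNT embryos and 71.6, 30.7, 34.1 and 70.0 in untreated ones. It was 6.9 to 26.7 in parthenogenetic, 2.3 to 18.0 in amanitin-treated fertilized and 1.1 to 3.1 in untreated fertilized 2-cell embryos. SCNT minus fertilized was 2.39 log2 (SE 0.40) at the 2-cell stage, where all fertilized arrays read below the added constant of 6.9, and the difference ran between 1.38 and 3.43 with other constants. Mean intensities were 51.6 ± 22.2 in SCNT and 2.2 ± 0.9 in fertilized embryos (SD, n = 4 each). Amanitin minus none in 2-cell SCNT embryos was -1.36 (SE 0.40). At the 1-cell stage it was 22.4 to 26.0 in untreated SCNT embryos and 0.7 to 5.5 in parthenogenetic embryos, with no overlap, and 2.4 to 32.3 in untreated fertilized embryos. Untreated 1-cell SCNT arrays stood above parthenogenetic arrays in this way for 16.9% of all genes. The S100a6 arrays of these 2 groups were all below the overall median.

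Vim encodes vimentin, the intermediate filament protein of mesenchymal cells. The gene lies at chr2:13574311-13582826. Its 2-cell intensity was 2.3 to 15.9 in amanitin-treated SCNT, 5.0 to 21.8 in untreated SCNT, 8.5 to 25.4 in parthenogenetic, 0.7 to 12.9 in amanitin-treated fertilized and 1.2 to 11.1 in untreated fertilized embryos. All of these were below the overall median, and SCNT minus fertilized was 0.46 log2 (SE 0.41) with overlapping arrays. At the 1-cell stage it was brighter: 16.6 to 40.8 in amanitin-treated SCNT, 25.1 to 41.0 in untreated SCNT, 8.6 to 24.8 in parthenogenetic, 1.5 to 8.4 in amanitin-treated fertilized and 6.9 to 52.1 in untreated fertilized embryos. The name of the probe set marks it as one whose probes can also match other sequences. Both other probe sets of Vim were dimmer and failed the filter, so that Vim rests on a single probe set near the background of these arrays.

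Ordered by mean, the groups of Anxa2, S100a6 and Vim formed a series in which the arrays of every group overlapped those of the next. For Scube2 and Col27a1 the gap without overlap lay below the untreated 2-cell SCNT group alone. For Lgals3 such gaps lay below the 2-cell SCNT and below the 2-cell parthenogenetic group. In untreated 1-cell embryos 0 of 6 genes separated SCNT from fertilized arrays, where 8.72% of all genes were higher and 7.96% lower without overlap. Among 2-cell SCNT embryos, amanitin minus none was lower without overlap for the same 5 genes that separated SCNT from fertilized arrays, where 26.6% of all genes were, and the median of all genes in that comparison was 0.28. Both comparisons use the same untreated 2-cell SCNT arrays. From the 1-cell to the 2-cell stage, Lgals3 (2.40, SE 0.28), Col27a1 (2.85, SE 0.41) and Scube2 (3.62, SE 0.42) were higher without overlap in untreated SCNT embryos and Vim was lower (-1.34, SE 0.44), where 27.4% of all genes were higher and 35.4% lower. Amanitin and untreated arrays of 2-cell fertilized embryos overlapped for all 6 genes, where 35.5% of all genes were higher and 24.5% lower without overlap.

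Whether SCNT embryos differed from fertilized embryos with transcription blocked was tested on the amanitin arrays. At the 1-cell stage Anxa2, S100a6 and Vim were higher in SCNT embryos, 3 of 6 genes, against 10.1% of all genes higher and 11.4% lower. Anxa2 was 360.6, 388.3, 299.9 and 328.7 in SCNT embryos against 189.5, 134.7, 179.5 and 177.0 in fertilized embryos, and the arrays did not overlap. The difference was 0.92 log2 (SE 0.23, adjusted p = 0.00219 by limma with Benjamini-Hochberg adjustment), and it missed the threshold when the probe sets of a gene were averaged (0.81, adjusted p = 0.0537). A dimmer probe set of Anxa2 that passed the filter gave 0.70 (SE 0.51, limma adjusted p = 0.384). Vim was 40.8, 32.9, 27.1 and 16.6 in SCNT embryos against 8.4, 4.9, 3.4 and 1.5 in fertilized embryos, again with no overlap (1.52, SE 0.41, limma adjusted p = 0.00538). The fertilized mean, 4.6, lay below the added constant, and the difference ran between 0.90 and 2.08 with other settings. Both other probe sets of Vim, which failed the filter, did not pass here (0.37, limma adjusted p = 0.552, and 1.02, limma adjusted p = 0.065). Arrays were higher without overlap for 13.7% of all genes. In untreated 1-cell embryos SCNT minus fertilized was 0.01 (SE 0.24) for Anxa2, 0.64 (SE 0.43) for S100a6 and 0.50 (SE 0.44) for Vim, with overlapping arrays. Amanitin minus none in 1-cell fertilized embryos was -0.66 (SE 0.23) for Anxa2, -0.59 (SE 0.40) for S100a6 and -1.25 (SE 0.41) for Vim, against 0.25 (SE 0.24), 0.00 (SE 0.43) and -0.22 (SE 0.44) in SCNT embryos, all with overlapping arrays. S100a6 was 29.6, 8.2, 27.6 and 44.2 in SCNT embryos against 9.3, 1.8, 3.2 and 8.2 in fertilized embryos, and 1 SCNT array lay within the fertilized range. Its difference was 1.23 (SE 0.40, limma adjusted p = 0.0227). Without SCNT replicate 1, 3 or 4, or fertilized replicate 2 or 3, that call was lost, with differences of 1.03 to 1.16 and limma adjusted p of 0.0585 to 0.0919. Lgals3, at 0.46 (SE 0.26, limma adjusted p = 0.225), and Col27a1, at -0.44 (SE 0.38, limma adjusted p = 0.473), did not pass. Scube2 read 0.6 to 3.9 in SCNT and 1.5 to 2.5 in fertilized embryos, all below the added constant, so its levels could not be compared there. Lgals3 passed when the values were taken as deposited (0.75, limma adjusted p = 0.0225), where the median of all genes was 0.16.

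Of 15 measured markers of cumulus cells, the donor cell type, 3 rose in amanitin-treated 1-cell SCNT embryos, 1 fell and 11 did not pass the test, against 10.1% of all genes higher and 11.4% lower: Inhba by 2.39 (SE 0.45), Tnfaip6 by 2.35 (SE 0.36) and Gja1 by 1.01 (SE 0.25) were higher, with Kitl at -0.63 (SE 0.19) lower. Inhba, Tnfaip6 and Gja1 averaged 3.8, 1.9 and 4.1 in the amanitin-treated 1-cell fertilized embryos. These means lay below the added constant, so the sizes of the differences of these genes depend on it. The summed intensity of the 18 markers on the array was 1265.3 to 1742.6 in amanitin-treated 1-cell SCNT embryos and 1069.2 to 1199.2 in amanitin-treated fertilized ones. The mean intensity of Has2, a hyaluronan synthase of expanding cumulus cells, was 24.6 in SCNT and 21.5 in fertilized embryos, both below the overall median. In untreated 1-cell embryos 0 of the 15 markers passed limma's test of SCNT minus fertilized in either direction. Few genes passed in that comparison, 428 of all 14916 higher and 401 lower, so the 0 is no result about the markers. Inhba averaged 30.7 in SCNT and 21 in fertilized embryos there, Tnfaip6 33.5 and 26, and Gja1 26.5 and 18.3. The summed intensities of the 18 markers overlapped, at 1340.7 to 1439.9 in untreated SCNT and 1326.8 to 1400 in untreated fertilized embryos. The part of these markers in the differences of Anxa2, S100a6 and Vim was not tested.

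At the 2-cell stage 1 gene was higher and 1 lower in amanitin-treated SCNT embryos, where 18.6% of all genes were higher and 24.6% lower. Col27a1 was higher by 1.74 log2 (SE 0.38, limma adjusted p = 0.000233), although 1 SCNT array, at 98.0, lay below the highest fertilized array, at 110.0. Its probe set had been chosen for the highest mean over all arrays, these included, so the choice was not independent of this test. It averaged 198.1 in these SCNT and 61.1 in these fertilized embryos, against 72.7 and 71.5 with the dimmer probe set. The dimmer one gave a difference of 0.06 (SE 0.46, limma adjusted p = 0.933). Lgals3 was lower, at -1.03 (SE 0.26, limma adjusted p = 0.00102), with 53.2, 26.6, 17.8 and 52.6 in SCNT embryos against 61.3, 74.1, 82.5 and 47.6 in fertilized embryos, so the arrays overlapped. The sign of Lgals3 was thus opposite to that in untreated 2-cell embryos. Anxa2 (-0.32, 95% interval -0.78 to 0.14), S100a6 (0.32, -0.49 to 1.14) and Vim (0.25, -0.58 to 1.09) did not pass the test. Neither did Scube2 (-0.22, -1.01 to 0.56). The arrays of S100a6, Vim and Scube2 in this comparison were all below the overall median.

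**Figure D3:**
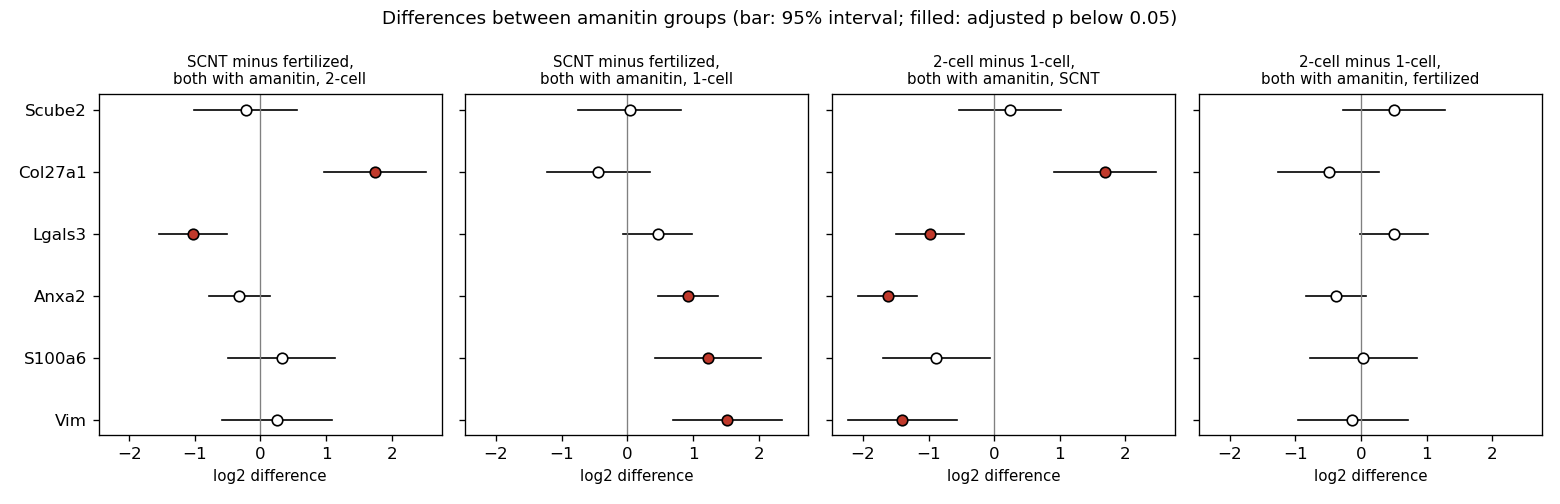
Log2 differences of the 6 genes between groups kept in amanitin; dots are estimates, bars 95% intervals, and filled dots have an adjusted p below 0.05 over all genes. Col27a1 is higher in 2-cell SCNT embryos by 1.74, Anxa2, S100a6 and Vim are higher in 1-cell SCNT embryos by 0.92, 1.23 and 1.52, and no dot is filled for 2-cell minus 1-cell in fertilized embryos.

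Between the stages, amanitin-treated SCNT embryos lost signal of 3 genes and gained that of 1. Anxa2 fell by 1.62 log2 (SE 0.23, limma adjusted p = 6.02e-08), to 76.5, 129.7, 142.4 and 107.6 in 2-cell embryos, against 360.6, 388.3, 299.9 and 328.7 in 1-cell embryos. Vim fell by 1.40 (SE 0.41, limma adjusted p = 0.00374) and Lgals3 by 0.98 (SE 0.26, limma adjusted p = 0.00117), and the normalized values of the stages did not overlap for these 3 genes. The intensities of Lgals3 did, at 17.8 to 53.2 in 2-cell and 48.2 to 64.1 in 1-cell embryos. Both other probe sets of Vim did not pass here (-0.21, limma adjusted p = 0.664, and -0.90, limma adjusted p = 0.0531). Col27a1 rose by 1.69 (SE 0.38, limma adjusted p = 0.000239), to 223.5, 240.3, 98.0 and 230.5 in 2-cell embryos, against 47.2, 39.6, 42.5 and 86.7 in 1-cell embryos, and the normalized values overlapped where these intensities did not. The dimmer probe set of Col27a1 gave 0.01 (SE 0.46) in this comparison. S100a6, at -0.88 (SE 0.40, limma adjusted p = 0.0624), did not pass, and did so with median centring (-0.97, limma adjusted p = 0.0373) and without 1-cell SCNT replicate 2 (-1.23, limma adjusted p = 0.0111) or 2-cell SCNT replicate 1 (-1.01, limma adjusted p = 0.0486). Among all genes 25.6% were higher and 29.8% lower by the test, and 24.6% were lower without overlap.

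In amanitin-treated fertilized embryos 0 of 6 genes passed limma's test between the stages, and 0 of 6 had an unadjusted p under 0.05, while 21.5% of all genes were higher and 19.0% lower. Scube2, S100a6 and Vim were below the overall median on every array of both groups, so a change of these genes could hardly show. The differences were 0.50 (SE 0.26) for Lgals3, -0.38 (SE 0.23) for Anxa2, 0.03 (SE 0.40) for S100a6, -0.49 (SE 0.38) for Col27a1, 0.50 (SE 0.39) for Scube2 and -0.13 (SE 0.41) for Vim. The median of all genes was 0.11 here, and -0.15 with median centring, under which Anxa2 passed (-0.88, limma adjusted p = 0.0005). It was 0.32 with the values as deposited, under which Lgals3 passed (0.88, limma adjusted p = 0.0039).

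The families of the 6 genes did not as a whole follow them in untreated 2-cell SCNT embryos, where 14.3% of all genes rose and 16.3% fell against fertilized embryos. The lists leave out the 6 genes and count only members that passed the filter on dim probe sets. Of 8 galectin genes 0 rose and 1 fell (Lgals8, -0.79, SE 0.21), with a median of 0.15 against -0.05 over all genes. Lgals1, which encodes galectin-1, did not pass, at 0.94 (SE 0.39, limma adjusted p = 0.068). Of 8 annexins 2 rose, Anxa6 by 1.31 (SE 0.31) and Anxa5 by 0.78 (SE 0.27), and 0 fell. Of 8 S100 genes 1 fell, S100a14 at -1.35 (SE 0.18), and S100a10, the partner of annexin A2, was at 0.46 (SE 0.48, limma adjusted p = 0.532).

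Of 29 collagen genes 2 rose, which are named here, and 4 fell, which are not. Col18a1, whose product is the basement membrane collagen that gives rise to endostatin, rose by 2.22 (SE 0.31) and Col7a1, which encodes the anchoring fibril collagen, by 0.98 (SE 0.28). Col1a1, the main fibrillar collagen of connective tissue, was at 0.08 (SE 0.29). Of 14 SCUBE and hedgehog genes 0 rose and 2 fell, the transcription factors Gli2 (-0.91, SE 0.32) and Gli3 (-0.45, SE 0.16), and Scube1 was at 0.13 (SE 0.37). Of 10 intermediate filament and lamin genes 1 rose, the keratin Krt18 by 1.17 (SE 0.29), and 6 fell, among them Gfap (-1.37, SE 0.36) and the lamin Lmna (-0.70, SE 0.16). The keratin Krt8 went the other way from Krt18, with mean intensities of 122.0 in SCNT and 178.2 in fertilized embryos. Of 36 other matrix and mesenchymal genes 4 rose and 4 fell, and mainly those that rose are named here. Loxl1, a lysyl oxidase that cross-links elastin, rose by 2.13 (SE 0.41), Nid1 of basement membranes by 2.10 (SE 0.32) and the laminin chain Lamb1 by 1.36 (SE 0.16), while Fn1, which encodes fibronectin, was at -0.53 (SE 0.14).

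**Figure D4:**
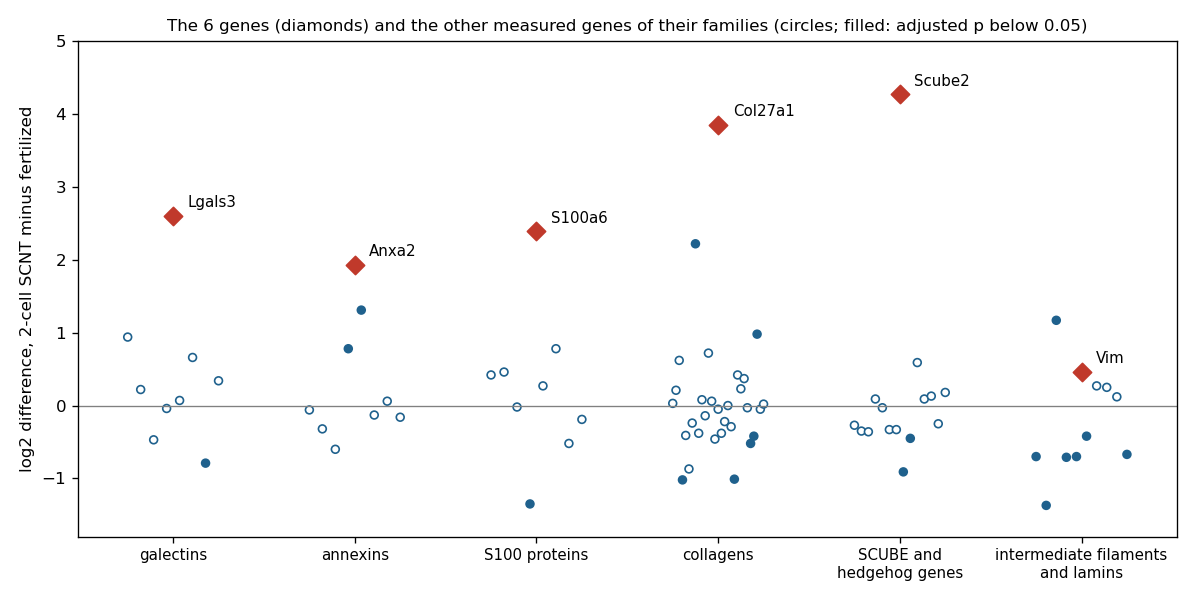
Log2 difference of untreated 2-cell SCNT minus fertilized embryos for the 6 genes (red diamonds) and the other measured genes of their families (circles; filled where the adjusted p over all genes is below 0.05). The diamonds of Scube2 and Col27a1 stand at 4.27 and 3.85, Vim at 0.46, and the highest circle, the collagen Col18a1, at 2.22.

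In amanitin-treated against untreated 2-cell SCNT embryos 13 of the 29 collagen genes rose and 3 fell, in a comparison in which 39.6% of all genes rose and 29.7% fell and the median was 0.55 for collagens and 0.28 for all genes. The 3 that fell were Col18a1 (-2.22, SE 0.31), Col11a2 (-1.61, SE 0.33) and Col25a1 (-1.10, SE 0.24), and those that rose included Col4a1 (1.54, SE 0.21) and Col4a2 (1.34, SE 0.22) of basement membranes. Among the galectins Lgals1 fell (-1.47, SE 0.39) and Lgals12 rose (2.34, SE 0.16).

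The 6 genes varied together only in part over the 39 arrays, which share their groups and their normalization. Pearson's r between them ran from -0.14 for Col27a1 and Vim to 0.71 for Lgals3 and Scube2. The genes most like each by Pearson's r over the 39 arrays are given as a description. Scube2 was most like Clu, the secreted chaperone clusterin (0.93), Clcn2, a chloride channel (0.91), and Igfbp2, a secreted binding protein of insulin-like growth factors (0.89). Clu read 94.0 to 139.1 in amanitin-treated and 942.3 to 1233.2 in untreated 2-cell SCNT embryos, against 62.2 to 126.7 in amanitin-treated and 136.7 to 161.9 in untreated 2-cell fertilized embryos. Lgals3 was most like Zfp36l2 (0.87), Sqstm1 (0.87) and Mbnl3 (0.86), and Mbnl3 shared its intermediate level in 2-cell parthenogenetic embryos: 439.2 to 837.4 in untreated SCNT, 145.0 to 317.5 in parthenogenetic and 95.1 to 170.9 in untreated fertilized embryos.

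Anxa2 was most like Actg1, the cytoplasmic γ-actin (0.86), Txn1 (0.85) and Ppil3 (0.84). Actg1 was 494.7 to 749.0 in amanitin-treated and 1481.8 to 2370.1 in untreated 2-cell SCNT embryos, and 651.4 to 716.5 in untreated 2-cell fertilized embryos. Col27a1 was most like Ttn (0.83), Erp44 (0.77) and Rhox5 (0.76). Ttn, which encodes the giant muscle protein titin, shared the signal in amanitin: 322.8 to 574.2 in amanitin-treated and 515.8 to 954.7 in untreated 2-cell SCNT embryos, against 138.1 to 221.1 in amanitin-treated and 71.8 to 182.0 in untreated fertilized embryos. S100a6 was most like Bex3 (0.76), which read 10.1 to 25.3 in amanitin-treated and 191.2 to 359.6 in untreated 2-cell SCNT embryos, and 5.9 to 7.3 in untreated fertilized embryos. Vim was most like Trmt10b (0.75), which in the 1-cell groups read 493.3 to 746.7 in amanitin-treated SCNT and 157.6 to 260.9 in amanitin-treated fertilized embryos.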

How the data were processed

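Poly(A) RNA of 39 samples with values, 1 array each, was measured with 45101 probe sets. The authors deposited linear intensity values per probe set, scaled so that the mean trimmed by 2% was 150 on every array. The software is not given in the sources used here, and the values of 1 of 40 planned arrays were empty. The 20th percentile of all values, 6.9, was added before log2. Because array medians spread over 0.82, above the limit of 0.5, quantile normalization followed. The 64 control probe sets were set aside. Of the others 34945 are annotated to 1 gene, 932 to several and 9160 to none. A probe set was kept if at least 4 arrays exceeded the median of all normalized values, 5.34, and each gene was represented by its brightest kept probe set on average. A mean per group was estimated in limma 3.58.1 (R 4.3.3; empirical Bayes with trend, 29 residual degrees of freedom), with 2-sided tests, Benjamini-Hochberg adjustment over 14916 genes and a threshold of 0.05. The number of arrays limits the precision. The code was tested on simulated data. Members and lists were chosen with earlier results of these data known. Named genes are the members, genes most correlated with each (the first 3), and genes of the family lists, mainly those past the threshold, which were picked with their values in view. Alternatives were other filters, scalings, added constants, probe set choices and variance models, a replicate block, and leaving out arrays. Fits over all kept probe sets and, for those that failed the filter, over all probe sets of 1 gene were added after seeing the data. Promoters and gene positions are from RefSeq tables of build GRCm38.p6, in which all 6 members matched.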

Additional observations from a re-analysis of the deposited data

Results flagged for a closer look

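Single arrays stood apart from their group in 3 of 54 groups of 4 values tested, about what chance gives, which is 1 in 20 groups. The gap to the nearest array as a share of the group's range was 0.953 for Col27a1 in untreated 2-cell SCNT replicate 1, which was high at 965.9. It was 0.948 for Col27a1 in amanitin-treated 2-cell SCNT replicate 3, which was low at 98.0, and 0.862 for Lgals3 in amanitin-treated 1-cell SCNT replicate 4, which was low at 48.2.

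The difference between SCNT and fertilized embryos under amanitin itself differed between the stages for 3 of the 6 genes by limma's interaction test, where 35.5% of all genes did. The 2-cell minus 1-cell value of that difference was -1.49 log2 for Lgals3 (SE 0.36, limma adjusted p = 0.00103), -1.24 for Anxa2 (SE 0.32, limma adjusted p = 0.00176) and 2.18 for Col27a1 (SE 0.54, limma adjusted p = 0.00125). The Col27a1 value is that of its brighter probe set, and the dimmer one gave -0.20 (SE 0.64, limma adjusted p = 0.859). The dimmer kept probe set of Anxa2 gave -1.16 (SE 0.72, limma adjusted p = 0.23). The value was -1.27 for Vim (limma adjusted p = 0.0875), -0.91 for S100a6 (limma adjusted p = 0.229) and -0.26 for Scube2 (limma adjusted p = 0.765).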

How the results depend on the processing

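Of 777 member values recomputed under other settings, 740 kept their direction and side of the threshold, or moved by less than the spread between replicates. The counts of genes past the threshold stayed within 1.5 times those reported: 2529 to 4204 for SCNT minus fertilized under amanitin at the 1-cell stage (3214 reported), 5344 to 6569 at the 2-cell stage (6445), 7139 to 8961 for 2-cell minus 1-cell under amanitin in SCNT embryos (8262) and 5419 to 7566 in fertilized embryos (6051). With each array left out they were 2658 to 2957, 6089 to 6361, 7797 to 8110 and 5511 to 5681. Values near 0 that missed the threshold turned sign. Scube2, SCNT minus fertilized under amanitin, was -0.17 at the 1-cell stage with median centring and -0.05 to 0.18 with single arrays left out, and -0.51 to 0.21 at the 2-cell stage. For 2-cell minus 1-cell in amanitin-treated fertilized embryos, S100a6 was -0.14 with median centring and -0.21 to 0.26 with single arrays left out, and Vim 0.15 with values as deposited and -0.36 to 0.10. S100a6, 2-cell minus 1-cell under amanitin in SCNT embryos, also passed with the constant at the 40th percentile (-0.57, limma adjusted p = 0.0354). In fertilized embryos Lgals3 also passed without 1-cell replicate 3 (0.68, limma adjusted p = 0.043) and Anxa2 with only the compared arrays in the fit (-0.38, limma adjusted p = 0.0481). The added constant set the size for dim genes: untreated 2-cell SCNT minus fertilized was 1.38 to 3.43 for S100a6 and 3.40 to 4.82 for Scube2, and 2.90 for Col27a1 with probe sets averaged. A filter on the mean left S100a6, Scube2 and Vim out. Same-numbered replicates did not deviate together, with correlations of -0.049 to 0.026, so the numbers were not taken as pairs; with the replicate block the counts were 3215, 6455, 8265 and 6045, and no member changed its call. The causes were not tested. Dim genes (Vim, S100a6, and Scube2 outside untreated 2-cell SCNT embryos) were below the overall median on most arrays.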

Other observations

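The summed intensity of the 18 cumulus cell markers was 5537.9 to 7397.9 in untreated 2-cell SCNT embryos and 5449.1 to 6831.3 in untreated 2-cell fertilized embryos. It was 1666.1 to 1891.7 in amanitin-treated 2-cell SCNT embryos and 1245.7 to 1738.7 in amanitin-treated 2-cell fertilized embryos. Amhr2, the receptor of anti-Müllerian hormone, averaged 2689.2 in untreated SCNT and 2571.9 in untreated fertilized 2-cell embryos. The gap junction gene Gja1 averaged 2116.5 in untreated SCNT and 1623.7 in untreated fertilized 2-cell embryos. In amanitin-treated 2-cell embryos Amhr2 averaged 52.6 in SCNT and 43.5 in fertilized embryos, and Gja1 27.4 in SCNT and 21.0 in fertilized embryos. Both genes were singled out after their values were seen.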
